A study of Mus musculus with 4 samples.

Results

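Osteopontin and the genes of its cell-surface receptors were examined in RNA sequencing libraries of uterine cells at gd11.5 of mouse pregnancy. The members were taken by name: the row of each deposited file whose symbol is Spp1 (osteopontin), Cd44, Itgav, Itgb3, Itgb5 or Itga9, which makes 6 of the 21993 genes listed. The labels describe NK cells from the uterus, sorted as CD3-CD45+NK1.1+ cells from females mated with B6 males. Of the 4 libraries, 2 came from mice with Ncr1Cre, a Cre recombinase under the Ncr1 gene of NK cells and related innate lymphoid cells, and 2 from control mice without Cre. The age of the mice is not given, and the labels do not tell whether the replicates are different mice, and p-values therefore measure library-to-library spread alone, part or all of which may be technical.

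Osteopontin is a secreted, phosphorylated glycoprotein of bone matrix, of activated macrophages and of the epithelium of the uterus, where it is a known attachment protein of the implanting embryo. An RGD motif binds integrins that contain the αv subunit, among them αvβ3 (Itgav with Itgb3) and αvβ5 (Itgav with Itgb5). Cleavage by thrombin uncovers a second site for α9β1 (Itga9 with Itgb1), and CD44, the main receptor of hyaluronan, is a further receptor.

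The promoter of Spp1 is shown because Spp1 changed most of the members, and that of Itgb5 because it was the most abundant receptor gene and changed the other way. RefSeq promoter windows of build GRCm38.p6 were found for 5 of the 6 members by symbol. The windows below are the 250 bases before a start site, 5′ to 3′ on the + strand, at chr5:104434861-104435110 for Spp1 and chr16:33829415-33829664 for Itgb5. Capitals mark, on either strand, the TATA box letters TATAAA and the variant TTTAAA. They also mark the CCAAT box, the GC box with the letters GGGCGG and the RUNX core with the letters TGTGGT. RefSeq gives Spp1 a second window as well, and the first is shown.
Spp1: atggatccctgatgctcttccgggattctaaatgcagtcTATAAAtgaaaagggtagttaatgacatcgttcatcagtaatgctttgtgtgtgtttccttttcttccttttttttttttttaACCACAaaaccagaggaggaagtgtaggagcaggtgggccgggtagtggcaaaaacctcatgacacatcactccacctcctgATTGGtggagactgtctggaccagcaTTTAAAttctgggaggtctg
Itgb5: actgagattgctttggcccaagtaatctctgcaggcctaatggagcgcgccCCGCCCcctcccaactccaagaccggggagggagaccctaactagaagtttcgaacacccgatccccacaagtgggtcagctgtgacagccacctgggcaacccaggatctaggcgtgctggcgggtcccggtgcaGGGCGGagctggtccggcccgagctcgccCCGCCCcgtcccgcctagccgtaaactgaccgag
The Spp1 window held TTTAAA with its first base 20 bases before the start, CCAAT on the opposite strand from -46, the RUNX core on the opposite strand from -128 and TATAAA from -211, and no GC box. Of 32851 windows of this length, 12.1% held TTTAAA, 33.8% CCAAT, 14.0% the RUNX core and 12.4% TATAAA. The Itgb5 window held 3 GC boxes, from -199, -63 and -34, and 32.7% of all windows held at least 1. The E-box letters CANNTG, held by 66.2% of all windows, stood once in the Spp1 window, from -98, and from -131, -122 and -109 in that of Itgb5. Searched on both strands as well, and found in neither window, were TGANTCA, the AP-1 site held by 6.75% of all windows, the steroid receptor motif TGTTCT, held by 16.1%, and the ETS core CCGGAAGT, held by 2.88%. The GC content of the Itgb5 window was 65.2%, against 43.6% in the Spp1 window and a median of 52.4% over all windows. These matches are letters in a window and were not tested as binding sites.

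Values are FPKM, fragments scaled to transcript length and to the mapped total of the library, so levels of different genes can be set side by side. The FPKM of a library summed to 384851.8 to 396770.5 in control and 460108.2 to 468191.9 in Ncr1Cre. Differences were tested with limma on log2(FPKM + 1) over the 11762 genes averaging 1 FPKM or more across libraries, and a gene was called at a Benjamini-Hochberg adjusted p under 0.05. All 6 members passed this filter. Of all tested genes, 48.5% were called, 30.9% as higher and 17.6% as lower in Ncr1Cre, and the median log2 difference was 0.11. The calls were 3638 higher and 2071 lower, while rescaling to the median gene gave 2923 higher and 2718 lower, and quantile normalization 2615 higher and 3032 lower. Among the members 2 were called higher (Spp1 and Itgav), 3 lower (Itgb3, Itgb5 and Itga9) and Cd44 was not called. No member overlapped between the genotypes, which held for 76.2% of all tested genes. A call or a lack of overlap was thus common among all genes.

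**Figure D1:**
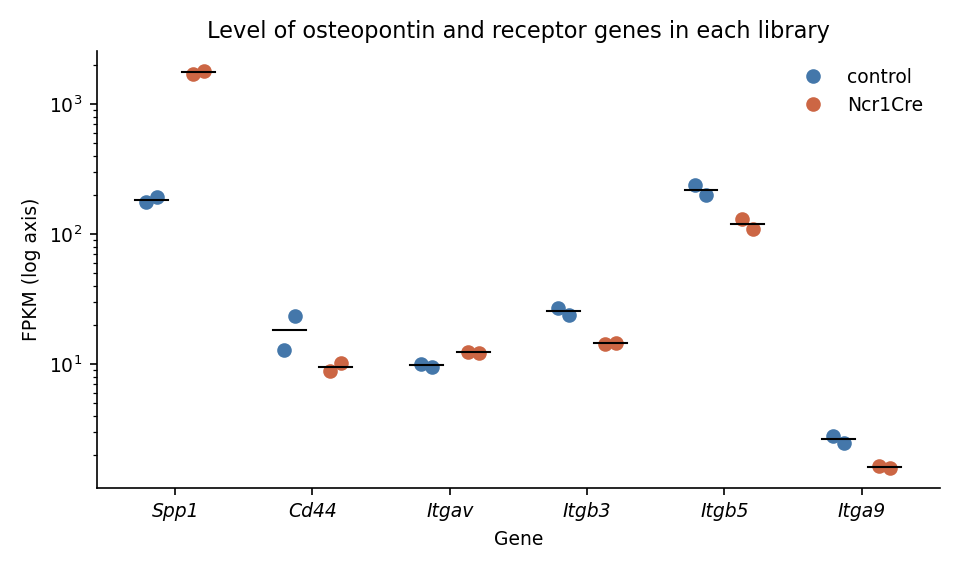
FPKM on a log axis of each member in the 2 control and 2 Ncr1Cre libraries, with a bar at each mean. Spp1 lies far higher in Ncr1Cre, at 1694 and 1812 FPKM against 177 and 193, while Cd44, Itgb3, Itgb5 and Itga9 lie lower there and Itgav slightly higher.

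Spp1, the ligand, had 1694 and 1812 FPKM with Ncr1Cre against 177 and 193 in control. Both Ncr1Cre libraries were far above both control libraries, and replicates of a genotype lay close together. The mean rose 9.48-fold, from 184.9 ± 11.3 to 1752.7 ± 83.5 FPKM (SD, n = 2). On the log2 scale the difference was 3.24 (SE 0.075, 95% interval from 3.05 to 3.43, limma adjusted p = 0.000126), and it was 3.11 after the shift of the median gene was removed by rescaling. By level, Spp1 was gene 19 of the 21993 in both Ncr1Cre libraries and gene 309 and 285 in the control libraries. It took 0.368% and 0.387% of the summed FPKM in Ncr1Cre and 0.0460% and 0.0486% in control. By size of rise it was gene 9 among the tested genes.

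The genes closest in pattern to Spp1 were found by the Euclidean distance between log2(FPKM + 1) profiles centred on their means, over the 4 libraries. They were Lcn2 (distance 0.0661), Olfm4 (0.124), Pglyrp1 (0.125), Akr1b7 (0.140), Ccl28 (0.143) and Hbb-y (0.168). Lcn2 stood at 2204 and 2504 FPKM in Ncr1Cre and at 241 and 257 in control. Olfm4 stood at 51.3 and 54.9 against 5.09 and 5.33, and Pglyrp1 at 134 in both Ncr1Cre libraries against 13.8 and 13.6. Hbb-y stood at 10.8 and 13.1 against 0.177 and 0.361, a 44.5-fold rise that log2(FPKM + 1) understates. Its nearness to Spp1, which rose 9.48-fold, therefore depends on this scale. With 4 libraries in 2 genotypes, this distance mostly ranks genes by the size of their difference between the genotypes.

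The genomic neighbours of Spp1 did not share its rise. Osteopontin belongs to the SIBLING family of mineralized-tissue proteins, and in the RefSeq gene order the family genes Dspp, Dmp1, Ibsp and Mepe lie directly before it. Dspp, Ibsp and Mepe were listed at 0 in every library. Dmp1 was listed at 0.032 FPKM in 1 Ncr1Cre library and at 0 in the other 3. The next gene on that side, Sparcl1, which encodes a matrix protein related to SPARC, fell from 300.8 ± 3.8 to 126.9 ± 5.42 FPKM (log2 difference -1.24, SE 0.0641, limma adjusted p = 0.000278). On the other side Pkd2, which encodes the cation channel polycystin-2, fell from 27.7 ± 2.10 to 14.2 ± 1.72 (-0.92, SE 0.112, limma adjusted p = 0.0027). Both neighbours were chosen by position.

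Itgb5, the β5 subunit that pairs with αv, was the most abundant receptor gene in every library. Its levels were 130 and 111 FPKM with Ncr1Cre and 241 and 199 in control. The lowest control library was above both Ncr1Cre libraries, and the mean was 1.83-fold lower in Ncr1Cre (log2 difference -0.86, SE 0.126, 95% interval from -1.19 to -0.54, limma adjusted p = 0.00479). In control it stood above Spp1, 220.1 ± 29.3 against 184.9 ± 11.3 FPKM without overlap, and in Ncr1Cre far below it.

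Itgb3, the β3 subunit that pairs with αv and, in platelets, with αIIb, stood at 14.3 and 14.6 FPKM in Ncr1Cre and at 26.9 and 24.1 in control. Both control libraries lay well above both Ncr1Cre libraries. The mean was 1.76-fold lower (log2 difference -0.77, SE 0.0869, 95% interval from -1.0 to -0.55, limma adjusted p = 0.00206).

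Itgav, the αv subunit shared by both of these integrins, stood at 12.5 and 12.3 FPKM in Ncr1Cre and at 10.1 and 9.61 in control. It was the only receptor member with both Ncr1Cre libraries above both control libraries. The difference was small, 1.26-fold (log2 difference 0.30, SE 0.0808, 95% interval from 0.09 to 0.51, limma adjusted p = 0.0315). After median rescaling it was 0.18 with an adjusted p of 0.121, and the call was also lost without any 1 of the 4 libraries (adjusted p of 0.0832 to 0.134). The interval contains the shift of the median gene, 0.11.

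Itga9, the α9 subunit, was the lowest member, at 1.67 and 1.60 FPKM in Ncr1Cre and 2.79 and 2.50 in control. Both control libraries were higher, by 1.62-fold on average (log2 difference -0.47, SE 0.107, 95% interval from -0.75 to -0.20, limma adjusted p = 0.0186). Its call was lost without Ncr1Cre replicate 2 (adjusted p = 0.0571), without control replicate 1 (0.0969) and without control replicate 2 (0.0524), but not without Ncr1Cre replicate 1 (0.0444). For a gene this low, log2(FPKM + 1) understates the change.

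Cd44 stood at 8.94 and 10.2 FPKM in Ncr1Cre and at 12.9 and 23.5 in control. The control libraries lay above the Ncr1Cre libraries but were 1 near them and 1 far above, an SD of 7.50 around a mean of 18.2. The log2 difference of -0.80 (SE 0.275, 95% interval from -1.51 to -0.10) did not pass the test (limma adjusted p = 0.0632). It was called with the replicate number as a block (adjusted p = 0.0281) and after median rescaling (-0.92, adjusted p = 0.0422). Without control replicate 1 it was -1.21 (adjusted p = 0.0057) and without control replicate 2 it was -0.40 (adjusted p = 0.0859), so the size of the difference depended on the control library. GENCODE M21 lists 9 transcripts of Cd44, which is known for variable exons, and the files give 1 value per gene, so standard and variant forms cannot be told apart.

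**Figure D2:**
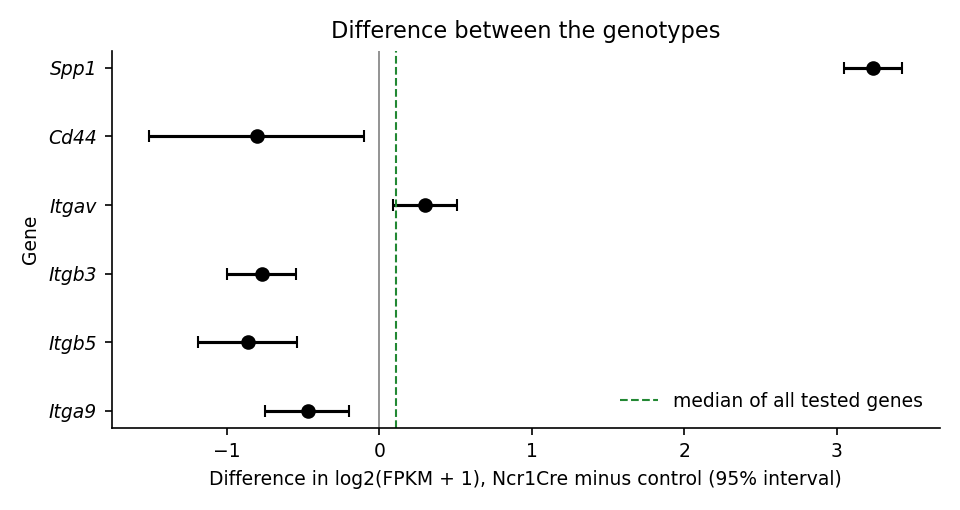
Difference in log2(FPKM + 1), Ncr1Cre minus control, of each member with its 95% interval from limma, and the median of all tested genes as a dashed line at 0.11. Spp1 lies at 3.24, Itgb3, Itgb5, Itga9 and Cd44 lie below 0, and the interval of Itgav, from 0.09 to 0.51, contains the dashed line.

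The same likeness measure was applied to the receptor genes. Closest to Itgb5 were Tm4sf5 (distance 0.0318), Stc2 (0.0322) and Bcl9l (0.0541), and closest to Itgb3 were Fads6 (0.0270) and Loxl3 (0.0363). Closest to Itgav were Gpc3 (0.00544), Tmco3 (0.0157) and Zrsr1 (0.0251), and closest to Itga9 were Ncapd3 (0.0193), Mtmr9 (0.0244) and Hand2 (0.0256). Closest to Cd44 were Egfr (0.133), Ccnd3 (0.156) and Mapk7 (0.179), and these shared its gap between the control libraries, as with Egfr at 13.4 and 22.2 FPKM.

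Within a library the receptor genes can be compared without regard to library scaling. In control the order by mean was Itgb5, Itgb3, Cd44, Itgav and Itga9, and in Ncr1Cre it was Itgb5, Itgb3, Itgav, Cd44 and Itga9. No neighbours in either order overlapped over the 2 libraries, although Cd44 in control reached from 12.9 FPKM, near Itgav, to 23.5, near Itgb3 at 24.1. Summed over the 5 receptor genes, the level was 168 and 149 FPKM in Ncr1Cre and 294 and 259 in control. Itgb5 made up 77.6% and 74.1% of that sum in Ncr1Cre and 82.0% and 77.0% in control, which overlap. The share of Itgb3 overlapped as well, at 8.56% and 9.76% against 9.18% and 9.28%. The share of Itgav did not overlap and was 7.47% and 8.21% in Ncr1Cre against 3.45% and 3.71% in control.

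**Figure D3:**
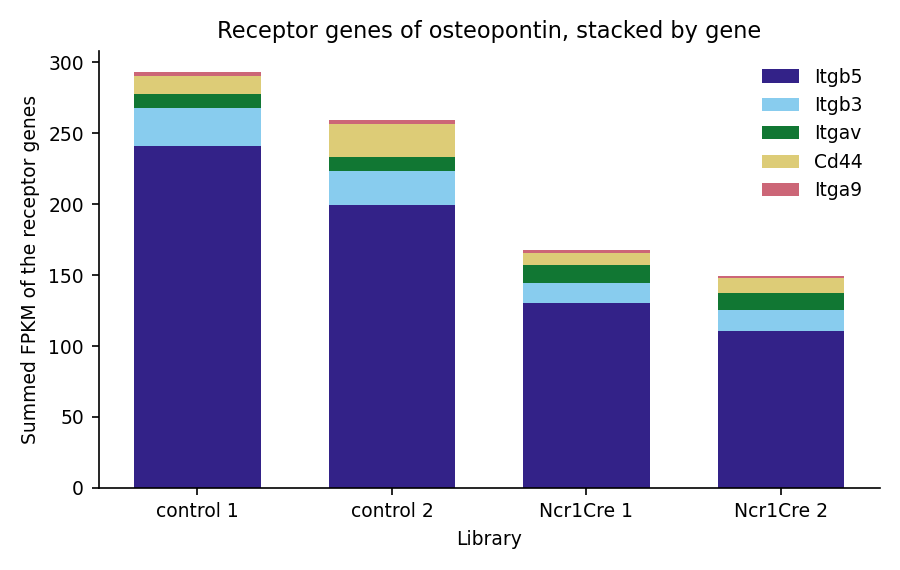
Summed FPKM of the 5 receptor genes in each library, stacked by gene. Itgb5 makes up at least 74.1% of each bar, and the bars of the Ncr1Cre libraries, at 168 and 149, are shorter than those of the control libraries, at 294 and 259.

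The β subunits shifted together relative to αv. The Itgb3 level was 1.15 and 1.19 times that of Itgav in Ncr1Cre and 2.66 and 2.50 times in control. The Itgb5 level was 10.4 and 9.02 times that of Itgav in Ncr1Cre and 23.8 and 20.7 times in control. Between the β subunits the ratio of Itgb5 to Itgb3 overlapped, at 9.07 and 7.59 in Ncr1Cre and 8.94 and 8.29 in control. Set against its receptors, the Spp1 level was 13.0 and 16.4 times that of Itgb5 in Ncr1Cre and 0.735 and 0.968 times in control. These ratios were not tested, because with 2 libraries on each side the smallest p of an exact two-sided permutation test is 0.333.

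The other integrin subunits that bind osteopontin split by direction. Of 6 in the list, Itgb1, Itga5 and Itga8 had lower and Itgb7, Itgb6 and Itga4 higher levels in Ncr1Cre. None overlapped between the genotypes, which held for 76.2% of all tested genes. Only 4 passed the filter, of which 3 were called lower and 1 higher, beside 17.6% and 30.9% of all tested genes. The median log2 difference was -0.32, against 0.11 over all tested genes. Itgb1, the partner of α9, α8 and α5, was 80.9 ± 4.71 FPKM in Ncr1Cre and 105.3 ± 8.45 in control (log2 difference -0.38, SE 0.0871, limma adjusted p = 0.02). Itga5, of the fibronectin receptor α5β1, was 57.6 ± 0.926 and 69.8 ± 2.12 (-0.27, SE 0.0655, limma adjusted p = 0.0226). Itga8 fell most, 2.62-fold, from 7.43 ± 0.134 to 2.84 ± 0.186 (-1.14, SE 0.0955, limma adjusted p = 0.00087). Itgb7, a leukocyte β subunit, rose from 1.06 ± 0.0802 to 1.89 ± 0.0894 (0.49, SE 0.108, limma adjusted p = 0.0174), with an adjusted p of 0.0893 under quantile normalization. The calls of Itgb1 were lost without Ncr1Cre replicate 1 or control replicate 2 (adjusted p of 0.0694 and 0.0823), those of Itga5 without any 1 library (0.0607 to 0.104), and those of Itgb7 without any 1 library but Ncr1Cre replicate 1 (0.0581 to 0.0814). Below the filter, Itgb6, the epithelial β6 subunit, stood at 0.760 and 0.789 FPKM in Ncr1Cre and 0.105 and 0.181 in control, and Itga4, the α4 subunit of leukocytes, at 0.190 and 0.238 against 0.165 and 0.133. These untested genes were named after their values were seen.

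Enzymes listed as modifying osteopontin, for example by cleavage, crosslinking or phosphorylation, moved in both directions. Of 15, 10 passed the filter, with 6 called higher and 3 lower, beside 30.9% higher and 17.6% lower among all tested genes, where higher calls also outnumbered lower ones. The median log2 difference was 0.97, against 0.11 over all tested genes. Mmp7, the epithelial metalloprotease matrilysin, rose from 29.3 ± 2.03 to 142.9 ± 9.60 FPKM (2.25, SE 0.0865, limma adjusted p = 0.000178). The transglutaminases Tgm1 and Tgm2, enzymes that crosslink proteins, rose 4.95-fold and 2.07-fold, Tgm2 from 215.4 ± 10.6 to 445.8 ± 12.7. Fam20c, the kinase of secreted phosphoproteins, rose 2.68-fold, from 25.6 ± 3.09 to 68.5 ± 2.61, and Plau, the urokinase plasminogen activator, 1.88-fold. Mmp2, a gelatinase of stromal cells, fell 2.27-fold, from 351.3 ± 7.92 to 154.6 ± 3.82. The thrombin gene F2 (picked with its values known) lay at 0.452 and 0.313 in Ncr1Cre and 0.0127 and 0.118 in control, below the filter.

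Genes that act with CD44 moved in both directions. Of 21, 19 passed the filter, with 6 called higher and 8 lower, beside 30.9% higher and 17.6% lower among all tested genes. The median log2 difference was -0.22, against 0.11 over all tested genes. Ezr, which encodes ezrin, a linker from membrane proteins to actin in epithelium, rose 2.37-fold, from 81.0 ± 1.36 to 191.6 ± 6.81 FPKM. Esrp1 and Esrp2, epithelial splicing regulators that act on Cd44 exons, rose 3.30-fold and 3.84-fold. Hyal1, a hyaluronidase, rose 5.92-fold, from 3.8 ± 0.411 to 22.5 ± 3.17. Mmp14, a membrane metalloprotease that sheds CD44, fell 2.74-fold, from 473.6 ± 26.2 to 172.7 ± 6.38, and Vcan, the hyaluronan-binding proteoglycan versican, fell 2.23-fold. Adjusted p-values of these 6 genes lay between 0.000255 for Mmp14 and 0.000418 for Vcan (limma).

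Other ligands of the same receptors were mostly lower, in contrast to Spp1. Of 24, 21 passed the filter, with 14 called lower and 2 higher, beside 17.6% lower and 30.9% higher among all tested genes. The median log2 difference was -0.52, against 0.11 over all tested genes. Postn, which encodes periostin, fell from 1663.2 ± 112.5 to 472.5 ± 31.0 FPKM (-1.81, SE 0.0826, limma adjusted p = 0.000225). Svep1, a matrix ligand of α9β1, fell 3.32-fold, Fbn1, which encodes fibrillin-1, 3.29-fold, Nid1 of the basement membrane 2.59-fold and Fbln5, an RGD protein of elastic fibers, 2.20-fold. Adam8, a leukocyte disintegrin protease, rose 3.29-fold, from 1.91 ± 0.0245 to 6.27 ± 0.431. In control Postn stood above Spp1, at 1663.2 against 184.9 FPKM, and in Ncr1Cre Spp1 stood above Postn, at 1752.7 against 472.5.

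Genes of integrin adhesion and signalling moved in both directions. Of 32, 30 passed the filter, and 14 of these were not called. The calls were 11 lower and 5 higher, beside 17.6% lower and 30.9% higher among all tested genes. In both directions together, the share of calls was near the 48.5% of all tested genes. The median log2 difference was -0.14, against 0.11 over all tested genes. Fermt1, the kindlin of epithelial cells, rose 4.73-fold, from 1.39 ± 0.245 to 6.58 ± 0.0918 FPKM. Sharpin, an inhibitor of integrin activation, rose 1.84-fold and Ptk2b, the focal adhesion kinase relative PYK2, 1.65-fold. Tns1, which encodes tensin-1, fell 1.86-fold, Ilk, the integrin-linked kinase, 1.5-fold and Zyx, which encodes zyxin, 1.32-fold. Adjusted p-values of these 6 genes lay between 0.000523 and 0.00569 (limma).

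**Figure D4:**
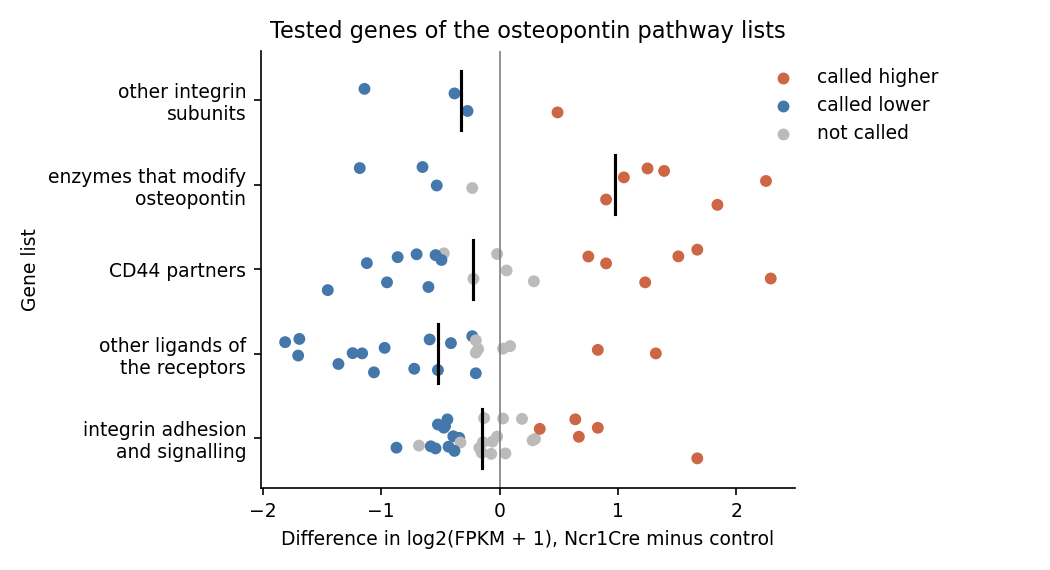
Difference in log2(FPKM + 1), Ncr1Cre minus control, of each tested gene in 5 lists, 1 point per gene, coloured by its call, with a bar at the median of the list. The enzymes have the highest median, 0.97, and the other ligands the lowest, -0.52. Among the ligands 14 of 21 points are called lower, beside 17.6% of all tested genes.

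Markers of several cell types differed between the same libraries, and the genes that define the labelled cells were low. The levels of Ncr1 itself were 0 and 0.152 FPKM with Ncr1Cre and 0.136 and 0.359 without. Klrb1c, which encodes NK1.1, had 0.924 and 0.673 FPKM against 0.449 and 0.972. Ptprc, of CD45, was 4.77 ± 0.544 and 2.73 ± 0.226 (limma adjusted p = 0.0103). All 16 NK-cell markers together summed to 51.7 and 53.3 FPKM in Ncr1Cre and 33.2 in both control libraries. Of the 9 tested, 6 were called higher and 0 lower, beside 30.9% higher and 17.6% lower among all tested genes. Called higher were Itga1, Itga2, Ptprc, Gzmb, Prf1 and Il2rb, while Nkg7, Gzma and Cd7 were not called. Each library held more Spp1 than all 16 NK-cell markers together. In such bulk libraries fewer cells of a type and less RNA per cell cannot be told apart.

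Beside the rise of Spp1, markers of epithelium, macrophages, trophoblast and erythroid cells rose. For comparison, 30.9% of all tested genes were called higher and 17.6% lower. Of 16 epithelial markers 14 were called higher and 1 lower, and their sum was 50019.7 and 53092 FPKM in Ncr1Cre against 10418.6 and 10557.9 in control, most of it from Prap1, which is named here because of its values. The Spp1 level was 0.0339 and 0.0341 times that sum in Ncr1Cre and 0.0170 and 0.0183 times in control, so it rose more than the sum. Of 13 tested of 18 macrophage and dendritic cell markers, 10 were higher and 2 lower, and the sum was 131.3 and 128.6 FPKM against 68.5 and 74.0. Spp1 was 12.9 and 14.1 times that sum in Ncr1Cre and 2.58 and 2.61 times in control. Of 13 trophoblast markers 6 were tested and all 6 were higher, with a sum of 945.1 and 1068.4 FPKM against 314.7 and 355.3, and Gcm1 was listed at 0 throughout. Spp1 rose more than that sum too, from 0.562 and 0.543 times its value in control to 1.79 and 1.70 times in Ncr1Cre. By summed FPKM, the erythroid markers came closest to the rise of Spp1 among the lists that rose. All 3 tested of 6 were higher, with a sum of 363.5 and 426.6 FPKM against 48.4 and 51.7. Most of it came from Hba-a1 alone, at 350 and 411 FPKM in Ncr1Cre and 47.6 and 50.6 in control. Hbb-y, an embryonic globin gene also among the genes nearest to Spp1, stood at only 0.177 and 0.361 FPKM in control. It rose 44.5-fold, against 9.48-fold for Spp1, which log2(FPKM + 1) understates. The Spp1 level was 4.66 and 4.25 times the erythroid sum in Ncr1Cre and 3.66 and 3.73 times in control. The part of these cell types in the rise of Spp1 was not tested.

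Beside the falls of Itgb3, Itgb5 and Itga9, most markers of decidual stroma and fibroblasts fell, as did those of smooth muscle. Over all tested genes, 17.6% were called lower and 30.9% higher. Of 15 tested of 16 stromal markers, 13 were lower and 1 higher, and the sum was 14370.9 and 14299.3 FPKM in Ncr1Cre against 31506.7 and 31883 in control. The marker called higher was Prl8a2, named because of its values. It stood at 21.9 and 24.7 FPKM in Ncr1Cre and at 3.35 and 4.12 in control. All 8 tested of 10 smooth-muscle markers were lower, with a sum of 221.8 and 214.8 FPKM against 606.9 and 594.8. Relative to the stromal sum these 3 genes were not lower in Ncr1Cre. The Itgb3 level was 0.000998 and 0.00102 of it in Ncr1Cre and 0.000855 and 0.000754 in control, and that of Itgb5 was 0.00905 and 0.00774 against 0.00764 and 0.00625. The ratio of Itga9 was 0.000116 and 0.000112 against 8.87e-05 and 7.85e-05. Most of the stromal sum came from Col1a1, Col1a2, Col3a1 and Sparc. Some stromal markers fell less than Itgb3 and Itgb5, as with Hoxa10 (1.72-fold) and Hand2 (1.42-fold), and some more, as with Pdgfra (2.85-fold). These ratios thus depend on the markers summed. Col1a1, Col1a2 and Hoxa10 are named because of their values. Of 8 platelet markers, a cell that carries β3, 4 were tested, of which 3 were higher and 0 lower, with a sum of 24.0 and 19.8 FPKM against 8.77 and 8.80 and Gp6 listed at 0 throughout. The 3 called higher were Pf4 (16.8-fold), Ppbp (6.47-fold) and Itga2b, which encodes αIIb, the partner of β3 in platelets (1.81-fold). The tested marker that was not called, Gp1bb, stood at 3.91 and 3.61 FPKM in Ncr1Cre and 4.65 and 4.72 in control. Gp1ba overlapped between the genotypes, and it and Gp1bb are named because of their values. The part of any cell type in these falls was not tested.

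**Figure D5:**
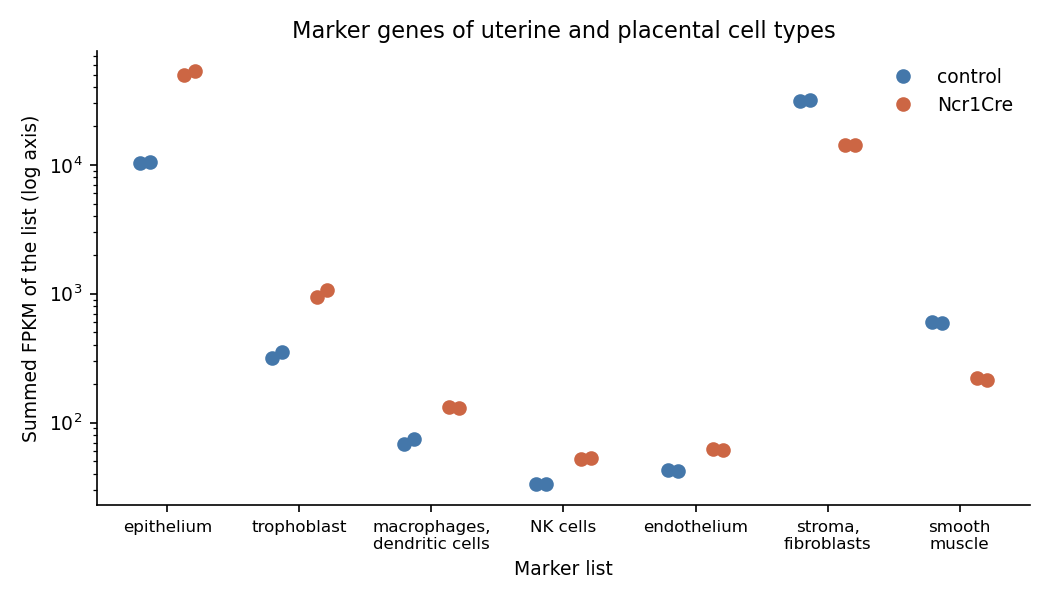
Summed FPKM on a log axis of 7 lists of cell type markers in each library. The sums of epithelium, trophoblast, macrophages, NK cells and endothelium lie higher in the Ncr1Cre libraries, and those of stroma and smooth muscle lie lower.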

How the data were processed

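RNA sequencing gave 4 libraries, 2 per genotype, grouped by the genotype label and numbered as in the sample titles. The rest of the genotype, 1 gene that the rule below takes, and results that need them are not reported here. The deposited files hold 1 FPKM value per gene, which the authors computed with Cufflinks (version not given) for build mm9, per the submitters' processing notes. For the aligner and annotation, nothing is given in the sources used here. All files list the same 21993 genes, and 27 symbols turned into dates were restored through their identifiers.

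FPKM are not counts and no total is given. Steps of whole fragments (tolerance 0.02) were sought in the low values of 4399 single-transcript genes. The best totals were 22660000 to 41990000 fragments, with 38.2% to 44.9% of low values whole. A total larger or smaller by a factor of 2 gave a near or higher share in 3 libraries. For both control libraries a doubled total lay beyond the range searched. Depth is thus known at best within a factor of 2, and no count test was run. No gene above 0 had identical values in both replicates of a genotype.

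The test was limma 3.58.1 in R 4.3.3 fitted to log2(FPKM + 1) with trend. A check on simulated data changed only a small part of the genes, in random directions. That setting differs from these data, so the check does not show how reliable the calls are here. P-values are two-sided, adjusted over all 11762 genes tested. The members, the gene lists and the rule for named genes were chosen with earlier results of these data known. The rule takes the 6 members, up to 4 genes with the smallest p of each pathway list (6 where more than 6 are called), up to 3 of each marker list with Ptprc, Klrb1c, Cd3e and Ncr1, and the 6 genes nearest to Spp1 and 3 nearest to each receptor gene, without predicted genes. Of 237 list entries 235 matched a row. As 10 alternatives, the fit was repeated with 0.1 as pseudocount, no filter, a filter at 5 FPKM, rescaling to the median gene, quantile normalization, a block for the replicate number, and without each library in turn. Promoter sequences come from RefSeq on GRCm38.p6, and no coordinates on mm9 were used. Markers of T cells (8 matched, 0 tested), osteoclasts (6 matched, 1 of 2 tested higher) and endothelium (4 higher and 2 lower of 8) were summarised as lists only. Among all tested genes, 30.9% were called higher and 17.6% lower.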

Additional observations from a re-analysis of the deposited data

How the results depend on the processing

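Spp1, Itgb3 and Itgb5 kept their direction and call under all 10 alternatives. Spp1 ranged from 3.09 to 3.24 with all libraries kept and from 3.18 to 3.30 with 1 left out, Itgb3 from -0.92 to -0.77 and from -0.85 to -0.70, and Itgb5 from -0.99 to -0.86 and from -1.0 to -0.73. Cd44, not called, was called after median rescaling (-0.92), after quantile normalization (-0.96, adjusted p = 0.0474) and with the replicate block (-0.80), and ranged from -1.21 to -0.40 with 1 library left out. Its adjusted p ranged from 0.0281 to 0.107 with all libraries kept. Itgav lost its call after median rescaling (0.18) and quantile normalization (0.16), and ranged from 0.27 to 0.33 with 1 library left out. Itga9 ranged from -0.53 to -0.41 with 1 library left out and was not testable at a mean of 5 FPKM. The cause was not tested.

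Of 5709 called genes 3638 were higher and 2071 lower. Median rescaling gave 2923 and 2718, and quantile normalization 2615 and 3032. With 1 library left out, 4092 to 5034 genes were called, with 2738 to 3221 higher and 1354 to 1883 lower, the lowest without control replicate 1. There the lone library is assumed to vary like the others. The replicate numbers share only a number, and replicate differences in the 2 genotypes correlated at 0.16 across genes. The replicate block gave 6004 calls and changed no call of a member but that of Cd44. The alternatives were also followed for 77 other genes, those that the rule takes by smallest p or by nearness to a member. Of these, 0 reversed, 9 lost a call and 2 gained one under at least 1 alternative. Some of them are not named in the text, and genes named on other grounds, such as Sparcl1, Pkd2 and Ptprc, are not among them. Depth is too uncertain here to set a limit for low genes such as Itga9.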
